A study of Homo sapiens with 6 samples.

Results

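The genes described here are 45 known targets of androgen signalling that are induced by androgens in prostate cells, without the kallikreins, the lipid and secretory genes and the lineage factors. They were taken by symbol from the 55765 gene symbols counted in RNA sequencing libraries of C4-2 cells, and all 45 had a row. C4-2 is a castration-resistant subline of the prostate cancer line LNCaP, so that every library comes from 1 line. A group of 3 libraries came from cells treated with the solvent DMSO, and 3 came from cells treated for 72 h with 1 nM R1881 (methyltrienolone), a stable synthetic androgen, at what the study calls a supraphysiological androgen level (SAL). All cells were grown in DMEM with serum, and the labels do not say whether steroids had been removed from it. The 3 libraries of a group come from independent experiments, according to the methods of the study.

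Androgens are steroid hormones that change transcription in the prostate. They act through androgen response elements, which lie mostly in enhancers far from gene starts, and coactivators and the Mediator complex are recruited to promoters. Androgen targets in the prostate luminal cell serve secretion, vesicle traffic, metabolism and feedback on growth factor signals, and many of them are read out together as a measure of androgen activity in tumors.

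Of the 45 genes, 44 had enough counts to be tested, and 40 of them were upregulated by SAL (edgeR's quasi-likelihood test with the replicate number as a block, adjusted p under 0.05 over the 16835 genes tested). In the whole table, 11.5% of the genes were upregulated and 9.37% were downregulated. None of the 44 was downregulated, neither by edgeR nor by DESeq2, and none had an unadjusted p under 0.05 in that direction with either tool. The median log2 fold change was 1.32, against -0.0011 for all genes tested. A log2 fold change of at least 1 was reached by 31 upregulated members, a size that 3.21% of all genes had in this direction. When all genes were ordered by log2 fold change, 33 of the 44 stood in the top 5% and 9 in the top 1%. Beside the 40 upregulated members, MED28, ZMIZ1, PA2G4 and VAPA were not DEGs (differentially expressed genes) and SLC26A3 was too low to be tested. The members were chosen with earlier results of these data known. These counts and ranks therefore describe the list and do not test its label as androgen-induced.

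**Figure D1:**
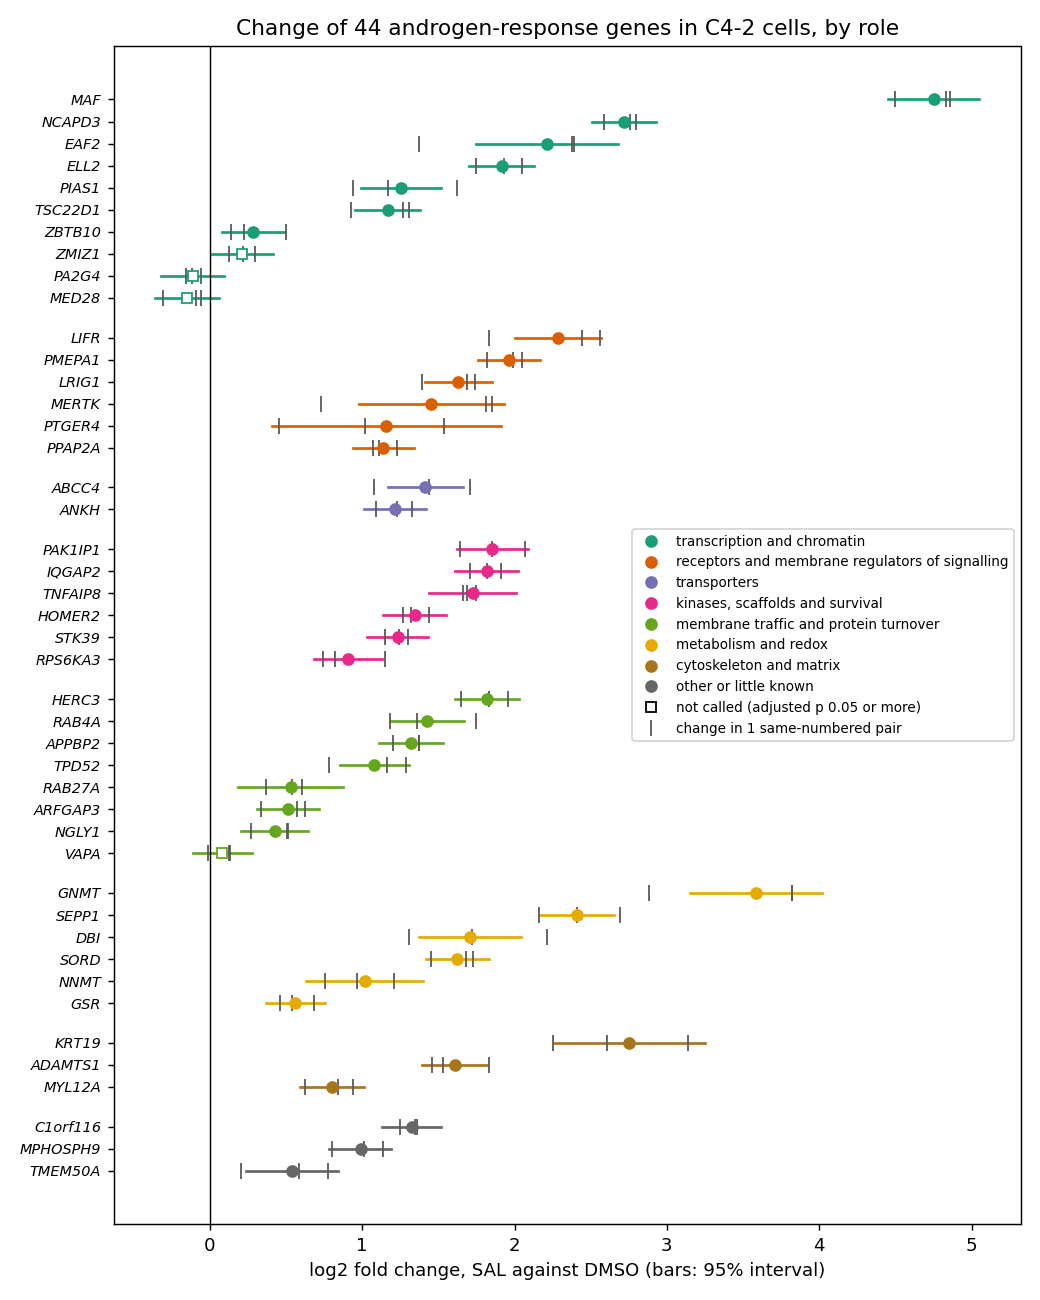
Log2 fold change (x axis) of the 44 members tested, grouped by role, with 95% intervals as bars and the change in each of the 3 same-numbered pairs of libraries as ticks. Filled circles are upregulated members and open squares are the 4 that were not called, and MAF stands apart at 4.75.

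Levels varied between replicate numbers, and the comparison rests on matching the libraries by number. In bulk RNA, more cells that express a gene and more RNA per cell cannot be told apart. In 24 of the 44 members every SAL library was above every DMSO library in CPM (counts scaled to the TMM-adjusted library size), against 3.78% of all genes. For the other 20 the groups overlapped, and 16 of these were DEGs in the test within numbers. Over all genes tested, 2593 of the 15571 with overlapping groups were DEGs in either direction. The change was upward in all 3 pairs in 41 members, against 25.9% of all genes. Of the variation of the members in log2 CPM, 68.3% lay between the treatments and 30.5% between the replicate numbers, whereas over all genes tested these shares were 16.8% and 77.1%. Without the replicate block, no member was a DEG in edgeR, with a smallest adjusted p of 0.0602, 28 members at an unadjusted p under 0.05 and an upward log2 fold change in 42 of the 44. That fit called 0.107% of all genes as upregulated and 0.0178% as downregulated. DESeq2 with the block called 36 members upregulated, against 7.66% of all genes, and 5.64% of all genes downregulated. With 1 replicate number left out the upregulated members were 37, 38 and 34 without numbers 1, 2 and 3, beside 14.6%, 9.10% and 4.41% of all genes, while 11.7%, 7.92% and 2.84% of all genes were downregulated.

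**Figure D2:**
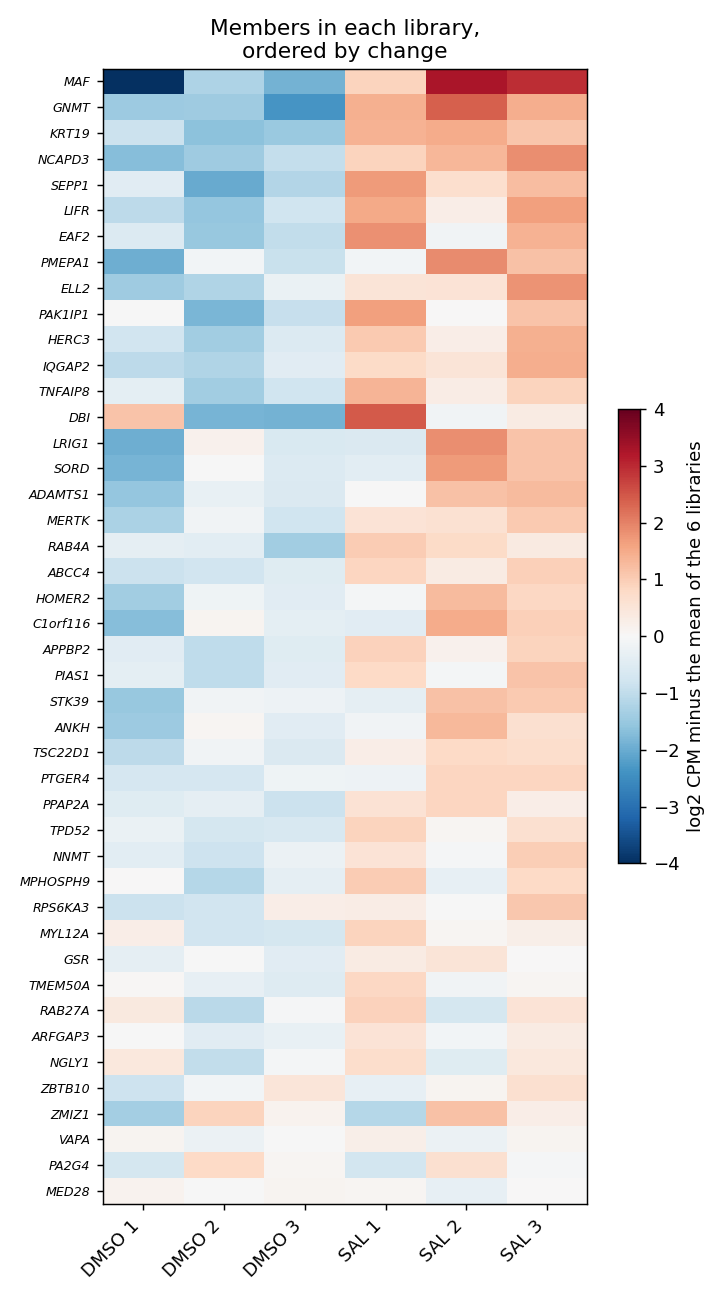
Log2 CPM of the 44 members tested (rows, ordered by log2 fold change) in the 6 libraries (columns), as the difference from the mean of the gene over the libraries. In 41 rows each SAL column is above the same-numbered DMSO column. DBI stands out with DMSO replicate 1 at 1.14, above SAL replicates 2 and 3, an order also seen in MYL12A, NGLY1 and MED28.

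The libraries held between 6931042 and 9776990 counts after removal of rRNA genes, and the members took 0.460% to 0.616% of these counts in DMSO and 1.09% to 1.46% in SAL. Reads outside annotated exons, which may lie within genes, made up 24.0% to 48.3% of the reads tallied. C4-2 cells carried luminal prostate markers in all libraries. The 8 luminal markers, 5 of them upregulated, summed to 2600 to 4920 CPM in DMSO and 4440 to 8950 in SAL. The 4 basal markers summed to at most 1.11 CPM in any library with KRT5 at 0, and the 4 immune and endothelial markers to at most 0.534 CPM with PTPRC and CD3E at 0. Neuroendocrine markers summed to 2.11 to 4.65 CPM in DMSO and 2.31 to 5.04 in SAL, with CHGB at 0. Stromal markers summed to 4.46 to 12.2 CPM in DMSO and 13.3 to 17.0 in SAL, with COL1A2 at 0 and only the smooth muscle actin gene ACTA2 upregulated of the 2 tested (log2 fold change 2.61). The part of the luminal and stromal marker levels in the results was not tested.

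The promoters of the 4 upregulated members with the smallest adjusted p are printed as examples. RefSeq promoters (GRCh38.p14) were matched for 34 of the 45 members, and the 250 bases before the annotated start are given 5′ to 3′ on the strand of the gene. Capitals mark TATAAA, the core of the TATA box, which was searched for after the values had been seen.
MAF, chr16:79600738-79600987, minus strand: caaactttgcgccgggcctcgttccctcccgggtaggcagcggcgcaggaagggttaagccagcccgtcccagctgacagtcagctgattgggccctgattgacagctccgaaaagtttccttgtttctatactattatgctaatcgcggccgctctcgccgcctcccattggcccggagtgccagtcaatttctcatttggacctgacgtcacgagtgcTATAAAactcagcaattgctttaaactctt
NCAPD3, chr11:134225462-134225711, minus strand: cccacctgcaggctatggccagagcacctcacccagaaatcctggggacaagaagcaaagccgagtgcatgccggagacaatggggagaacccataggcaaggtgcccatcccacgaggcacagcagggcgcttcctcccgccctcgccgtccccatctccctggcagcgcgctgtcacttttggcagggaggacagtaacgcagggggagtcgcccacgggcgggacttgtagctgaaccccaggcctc
SEPP1 (now SELENOP), chr5:42811893-42812142, minus strand: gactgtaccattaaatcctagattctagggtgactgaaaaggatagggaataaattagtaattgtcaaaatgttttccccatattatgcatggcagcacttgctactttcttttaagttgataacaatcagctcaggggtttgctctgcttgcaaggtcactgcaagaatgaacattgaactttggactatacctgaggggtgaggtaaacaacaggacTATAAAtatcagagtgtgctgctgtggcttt
PMEPA1, chr20:57711473-57711722, minus strand: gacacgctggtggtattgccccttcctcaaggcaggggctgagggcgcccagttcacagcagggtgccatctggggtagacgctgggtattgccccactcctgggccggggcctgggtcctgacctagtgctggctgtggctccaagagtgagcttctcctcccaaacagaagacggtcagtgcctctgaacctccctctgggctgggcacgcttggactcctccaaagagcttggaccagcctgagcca
The 6-base core of the androgen response element, AGAACA on either strand, was in none of these 4 windows and in 1 of the 34 member promoters (2.94%, STK39), against 12.4% of all 27305 promoters of this length. The complete palindrome, which is AGAACA, any 3 bases and TGTTCT and so holds that core on each strand, was in none of the 34 and in 1 of all promoters. TATAAA on the strand of the gene was in 2 of the 34 (5.88%), MAF at 30 and SEPP1 at 31 bases before the start, against 7.17% of all promoters. Both genes are among the 4 printed, so the printed windows do not stand for the 34 member promoters. The median GC content was 67.2% in the member windows and 58.0% in all promoters, and SEPP1 was low in this respect at 39.6%.

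Within 10 kb on either side of the annotated gene start in GRCh37, the palindrome with at most 1 mismatch was found at 2 of the 45 members (4.44%), against 7.80% of the 13121 tested genes with a start in the annotation and 8.35% of the 1641 other upregulated genes. The start in this search is the outer end of the gene in GENCODE, and it can lie far from the RefSeq start used for the promoters. Both sites are printed on the plus strand with 5 flanking bases in lower case, and the letters of the motif that match are in capitals.
LRIG1, chr3:66561443-66561467: ccagtAGAACATGGTGTTCTggaag
LIFR, chr5:38610160-38610184: cagctAGAACcCTCTGTTCTcttcc
The LRIG1 site matched the palindrome at all of its fixed letters and lay at -9.77 kb from the gene start, outside annotated genes. The LIFR site had 1 mismatch and lay at -1.72 kb from the GENCODE start, in an intron of the antisense gene LIFR-AS1. That start is at 38608456 in GRCh37, while the RefSeq promoter window of LIFR was at 38595406 to 38595655 in GRCh38.p14. The distance of the site from the RefSeq start was not computed. The 2 matches describe sequence only, and protein binding was not measured in these libraries.

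Among the 10 genes of transcription and chromatin, 7 were upregulated, with the widest range of any role. MAF, a basic leucine zipper transcription factor (chromosome 16, 79619740 to 79634634 in GRCh37, minus strand), had 1.11, 8.89 and 5.61 CPM in DMSO replicates 1, 2 and 3 and 39.3, 206 and 167 CPM in the SAL replicates. Its lowest SAL library was above its highest DMSO library although replicate 1 was low in both groups. This was a 26.9-fold rise (log2 change of 4.75 ± 0.14 SE, adjusted p = 1.00e-11), rank 14 of all genes tested, with 4.86, 4.50 and 4.83 in the 3 pairs. The gene had only 9 to 65 counts per DMSO library. NCAPD3, a subunit of condensin II (chromosome 11, 134020008 to 134095398 in GRCh37, minus strand), had 93.9, 114 and 158 CPM in DMSO replicates 1, 2 and 3 and 568, 771 and 1098 CPM in the SAL replicates. No SAL library overlapped with a DMSO library, and the pairs changed by 2.59, 2.76 and 2.80 (log2 change of 2.72 ± 0.098 SE, adjusted p = 5.69e-11). ELL2, an elongation factor of RNA polymerase II (chromosome 5, 95220802 to 95297555), had 49.6, 58.1 and 111 CPM in DMSO replicates 1, 2 and 3 and 190.2, 196 and 460.2 CPM in the SAL replicates. It was 3.77-fold higher in SAL (log2 change of 1.92 ± 0.10 SE, adjusted p = 3.24e-09), with replicate 3 high in both groups.

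EAF2, which binds and stimulates ELL proteins, rose as well, 4.64-fold (adjusted p = 2.84e-06). Its change was 2.38, 1.37 and 2.39 in the 3 pairs, so replicate 2 responded less than the others. The SUMO ligase PIAS1 was 2.39-fold higher (adjusted p = 4.47e-06), and TSC22D1, a leucine zipper regulator, was 2.25-fold higher (adjusted p = 7.56e-07). The zinc finger gene ZBTB10 was just past the threshold with a log2 fold change of 0.29 (adjusted p = 0.0485). This call was lost in 6 of 8 alternative settings (adjusted p from 0.0118 to 0.263), and the levels of its groups overlapped.

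The other 3 genes of this role were not called. ZMIZ1, a PIAS-like coactivator, had 43.9, 210.3 and 126 CPM in DMSO replicates 1, 2 and 3 and 51.0, 258 and 138 CPM in the SAL replicates, so its replicates differed by far more than its groups. Its log2 fold change was 0.21 (adjusted p = 0.130, 95% interval 0.012 to 0.41). The Mediator subunit MED28 had a log2 fold change of -0.15 (95% interval -0.36 to 0.06, adjusted p = 0.323), and PA2G4, an ErbB3-binding protein known as a corepressor, of -0.11 (95% interval -0.32 to 0.09, adjusted p = 0.463). Both were lower in SAL in all 3 pairs, as were 25.3% of all genes. These intervals do not include a doubling or the median change of the members.

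**Figure D3:**
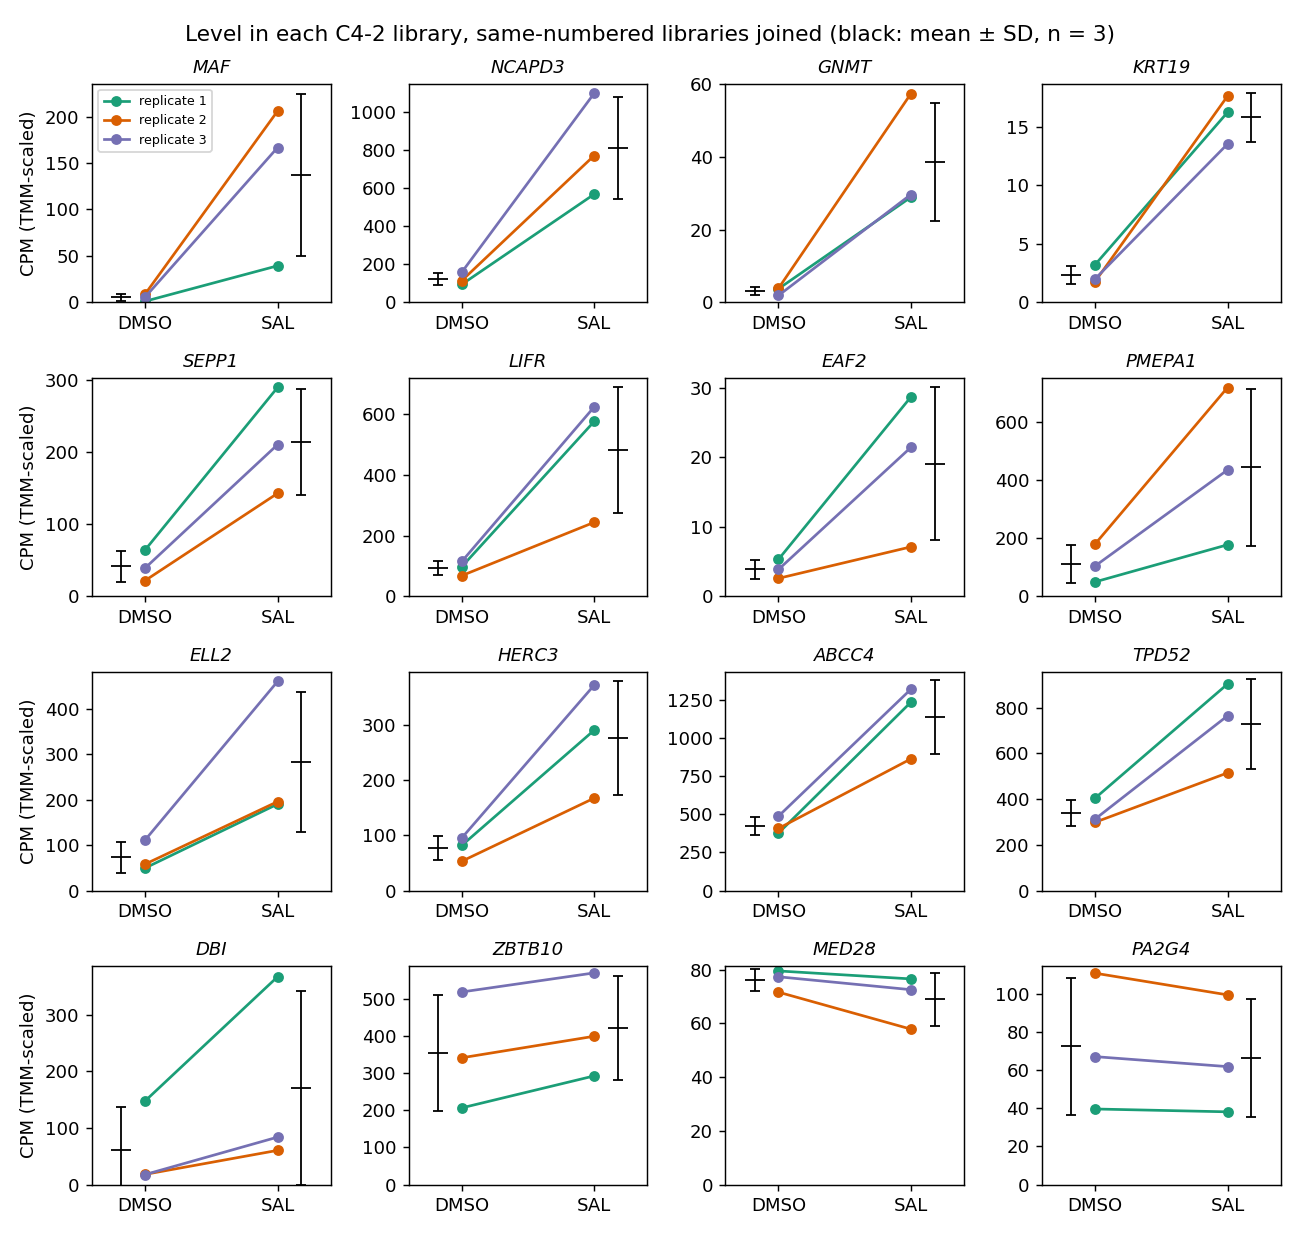
CPM of 16 members in the 6 C4-2 libraries, each panel with its own axis from 0, with same-numbered libraries joined and the mean ± SD of each group (n = 3) in black. Lines of MAF, NCAPD3, GNMT and KRT19 rise in all replicates, DBI shows 1 replicate far above the others in both groups, and the lines of MED28 and PA2G4 slope slightly downward.

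All 6 receptors and membrane regulators of signalling were upregulated. PMEPA1, a membrane protein that binds NEDD4-type ubiquitin ligases and restrains TGF-β signalling (chromosome 20, 56223448 to 56286592 in GRCh37), had 49.9, 180.1 and 105 CPM in DMSO replicates 1, 2 and 3 and 178, 718 and 435 CPM in the SAL replicates. SAL replicate 1 was lower than DMSO replicate 2, so the groups overlapped, yet the gene rose by 1.82, 1.99 and 2.05 on the log2 scale in the 3 pairs (log2 change of 1.96 ± 0.096 SE, adjusted p = 1.55e-09). LIFR, the receptor of leukemia inhibitory factor (chromosome 5, 38474770 to 38608456), had 97.6, 68.2 and 115 CPM in DMSO replicates 1, 2 and 3 and 575, 244 and 623 CPM in the SAL replicates. Its SAL libraries were all above the DMSO libraries, and it was 4.88-fold higher (log2 change of 2.29 ± 0.13 SE, adjusted p = 1.04e-07), with the smallest response in replicate 2. LRIG1, a feedback inhibitor of ERBB receptors (chromosome 3, 66429221 to 66551687), had 25.5, 112 and 66.0 CPM in DMSO replicates 1, 2 and 3 and 67.2, 364 and 221 CPM in the SAL replicates. Its SAL replicate 1 was near the DMSO mean, and the log2 changes within pairs were 1.39, 1.69 and 1.74 (log2 change of 1.63 ± 0.10 SE, adjusted p = 2.23e-08).

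The other 3 genes of this role changed less or less evenly. PPAP2A (now PLPP1), a lipid phosphate phosphatase, had the highest level of all members per length, 309 CPM per kb of exon in DMSO and 682 in SAL, and was 2.20-fold higher (adjusted p = 4.41e-07). MERTK, a receptor kinase for the uptake of dying cells, was 2.74-fold higher (adjusted p = 0.000502), with 1.81, 0.73 and 1.85 on the log2 scale in the pairs. PTGER4, the prostaglandin E2 receptor EP4, had 10, 9 and 14 counts in the DMSO libraries and 14, 37 and 33 in the SAL libraries. Its log2 fold change of 1.16 (adjusted p = 0.0287) rested on these low counts, and it was not called by DESeq2, without replicate 2 or without replicate 3 (adjusted p from 0.00497 to 0.199 over 7 alternatives with the block).

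In the transporter group, ABCC4, which exports cyclic nucleotides and prostanoids (chromosome 13, 95672089 to 95953729 in GRCh37), had 376, 407 and 487 CPM in DMSO replicates 1, 2 and 3 and 1235, 863 and 1320 CPM in the SAL replicates. These groups did not overlap, with a 2.66-fold rise (log2 change of 1.41 ± 0.12 SE, adjusted p = 6.04e-07). ANKH, which controls extracellular pyrophosphate, had 51.2, 148 and 104 CPM in DMSO replicates 1, 2 and 3 and 129, 347 and 222 CPM in the SAL replicates. Its groups overlapped because SAL replicate 1 was under DMSO replicate 2, while the pairs changed by 1.33, 1.23 and 1.09 (log2 change of 1.22 ± 0.095 SE, adjusted p = 2.58e-07). SLC26A3, a chloride and bicarbonate exchanger, had 2, 2 and 3 counts in the DMSO libraries and 21, 1 and 5 in the SAL libraries. With a SAL library at 1 count and no more than 3 counts in any DMSO library, a change was not detectable at this depth.

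All 6 genes of the kinase, scaffold and survival group were upregulated, with log2 fold changes from 0.90 to 1.85. IQGAP2, a scaffold of the cytoskeleton (chromosome 5, 75699110 to 76003957 in GRCh37), had 88.7, 79.4 and 133 CPM in DMSO replicates 1, 2 and 3 and 314, 260 and 501 CPM in the SAL replicates, with no overlap between the groups (log2 change of 1.82 ± 0.095 SE, adjusted p = 3.25e-09). PAK1IP1, an inhibitor of the kinase PAK1 that also takes part in ribosome assembly (chromosome 6, 10695205 to 10710015), had 73.7, 20.6 and 38.8 CPM in DMSO replicates 1, 2 and 3 and 229.6, 75.2 and 164 CPM in the SAL replicates. Replicate 2 was lowest in both groups, and the SAL libraries remained above all DMSO libraries (log2 change of 1.85 ± 0.11 SE, adjusted p = 9.75e-09). HOMER2, a scaffold of calcium signalling, had 54.5, 128 and 106 CPM in DMSO replicates 1, 2 and 3 and 136, 347 and 256 CPM in the SAL replicates. Its 3 pairs changed by 1.32, 1.44 and 1.27 (log2 change of 1.34 ± 0.094 SE, adjusted p = 7.14e-08). TNFAIP8, a regulator of apoptosis, was 3.31-fold higher, with 1.75, 1.69 and 1.66 in the pairs, the narrowest range of all members at 0.0908. STK39, the kinase SPAK of ion transport, was 2.35-fold higher and RPS6KA3, the ribosomal S6 kinase RSK2, 1.87-fold (adjusted p = 1.68e-07 and adjusted p = 1.63e-05).

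Genes of membrane traffic and protein turnover had the lowest median change of any role, a log2 fold change of 0.80, with 7 of 8 upregulated. HERC3, a HECT-type ubiquitin ligase (chromosome 4, 89444961 to 89629601 in GRCh37), had 81.8, 53.0 and 95.3 CPM in DMSO replicates 1, 2 and 3 and 290.5, 167 and 372 CPM in the SAL replicates. All of its SAL libraries were above the DMSO libraries, with a 3.53-fold rise (log2 change of 1.82 ± 0.099 SE, adjusted p = 4.64e-09). APPBP2, which binds the amyloid precursor protein and serves a ubiquitin ligase, had 64.2, 42.8 and 62.3 CPM in DMSO replicates 1, 2 and 3 and 166, 98.6 and 162 CPM in the SAL replicates (log2 change of 1.32 ± 0.097 SE, adjusted p = 1.24e-07). RAB4A, a small GTPase of endosome recycling, had 76.9, 73.8 and 37.8 CPM in DMSO replicates 1, 2 and 3 and 198, 168 and 128 CPM in the SAL replicates (log2 change of 1.43 ± 0.11 SE, adjusted p = 3.87e-07). The groups of both genes did not overlap. TPD52, a vesicle protein often amplified in prostate tumors, was 2.11-fold higher (adjusted p = 3.25e-06) with changes of 1.16, 0.79 and 1.29 in the pairs.

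Smaller changes were found for the other traffic genes. ARFGAP3, a regulator of ARF1 at the Golgi, was 1.43-fold higher (adjusted p = 0.00128). NGLY1, which removes N-glycans from misfolded proteins, was 1.34-fold higher (adjusted p = 0.00728), and both calls were lost without replicate 3. Over the 8 alternatives with the block the adjusted p ranged from 1.68e-06 to 0.127 for ARFGAP3 and from 0.000337 to 0.210 for NGLY1 (edgeR or DESeq2). RAB27A, a GTPase of granule exocytosis, was 1.44-fold higher (adjusted p = 0.0287), which was not called with DESeq2, without replicate 1 or without replicate 3 (adjusted p from 0.0212 to 0.285). VAPA, a tether of the endoplasmic reticulum, had 147 ± 16.8 CPM in DMSO and 157 ± 25.7 CPM in SAL (SD, n = 3) and was not called (log2 fold change 0.08, 95% interval -0.11 to 0.28, adjusted p = 0.585).

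The 6 genes of metabolism and redox were all upregulated, with the highest median of any role (log2 fold change 1.66). GNMT, which methylates glycine and so consumes S-adenosylmethionine (chromosome 6, 42928492 to 42931618 in GRCh37), had 3.72, 3.83 and 1.87 CPM in DMSO replicates 1, 2 and 3 and 28.9, 57.5 and 29.7 CPM in the SAL replicates. The lowest SAL library was far above the highest DMSO library. It was 12.0-fold higher (log2 change of 3.59 ± 0.20 SE, adjusted p = 9.75e-09), with 2.88, 3.82 and 3.82 in the pairs, from 14 to 30 counts per DMSO library. SEPP1 (now SELENOP), the plasma carrier of selenium (chromosome 5, 42799982 to 42887494), had 64.5, 22.0 and 39.4 CPM in DMSO replicates 1, 2 and 3 and 289.9, 143 and 211 CPM in the SAL replicates. Replicate 1 was highest in both groups, and the groups did not overlap (log2 change of 2.41 ± 0.11 SE, adjusted p = 1.05e-09). SORD, which oxidizes sorbitol to fructose (chromosome 15, 45315345 to 45369383), had 80.2, 287 and 199.8 CPM in DMSO replicates 1, 2 and 3 and 219, 952 and 639.6 CPM in the SAL replicates. SAL replicate 1 lay under DMSO replicate 2, and the pairs nonetheless changed by 1.45, 1.73 and 1.68 (log2 change of 1.62 ± 0.097 SE, adjusted p = 1.03e-08).

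The acyl-CoA-binding protein gene DBI had 148, 18.2 and 17.9 CPM in DMSO replicates 1, 2 and 3 and 367, 60.5 and 83.9 CPM in the SAL replicates. Its DMSO replicate 1 exceeded SAL replicates 2 and 3, and the pairs changed by 1.31, 1.72 and 2.21 (adjusted p = 1.32e-05), so neither its level nor the size of its response was even among replicates. NNMT, which methylates nicotinamide, and GSR, which reduces glutathione, were 2.02-fold and 1.48-fold higher (adjusted p = 0.000792 and adjusted p = 0.000397). In both genes every SAL library was above every DMSO library.

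Of the cytoskeleton and matrix genes, KRT19, a keratin of simple epithelia (chromosome 17, 39679869 to 39684560 in GRCh37), had 3.22, 1.78 and 2.00 CPM in DMSO replicates 1, 2 and 3 and 16.3, 17.6 and 13.6 CPM in the SAL replicates. These low levels did not overlap between the groups (log2 change of 2.75 ± 0.23 SE, adjusted p = 5.72e-07). ADAMTS1, a secreted metalloprotease (chromosome 21, 28208074 to 28217728), had 130.3, 313 and 255 CPM in DMSO replicates 1, 2 and 3 and 376, 865 and 908 CPM in the SAL replicates, again without overlap (log2 change of 1.61 ± 0.10 SE, adjusted p = 1.87e-08). MYL12A, a regulatory light chain of nonmuscle myosin, had 177, 86.8 and 91.5 CPM in DMSO replicates 1, 2 and 3 and 273, 156 and 176 CPM in the SAL replicates. Its groups overlapped and its pairs changed by 0.63, 0.84 and 0.94 (log2 change of 0.80 ± 0.097 SE, adjusted p = 2.45e-05). MYL12A shares near-identical exons with MYL12B, and KRT19 and DBI have processed pseudogenes, so reads that matched several places were not counted and their levels are uncertain.

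The remaining 3 genes are less well known. C1orf116, also named SARG for its specific regulation by androgens, had 76.3, 269.5 and 191 CPM in DMSO replicates 1, 2 and 3 and 182, 694 and 487 CPM in the SAL replicates. The replicates differed widely and the pairs hardly, at 1.25, 1.36 and 1.35 (log2 change of 1.33 ± 0.091 SE, adjusted p = 5.98e-08). MPHOSPH9, a protein of the centriole, had 292, 133 and 229.6 CPM in DMSO replicates 1, 2 and 3 and 591, 232 and 506 CPM in the SAL replicates, with overlapping groups and a 1.99-fold rise (log2 change of 0.99 ± 0.096 SE, adjusted p = 2.59e-06). TMEM50A, a small membrane protein, had 24.5, 18.6 and 16.4 CPM in DMSO replicates 1, 2 and 3 and 42.3, 21.5 and 24.8 CPM in the SAL replicates. Its log2 fold change of 0.54 (adjusted p = 0.0128) was not called with DESeq2, without replicate 1 or without replicate 3 (adjusted p from 0.00139 to 0.164).

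The 2 largest changes were those of MAF and GNMT, whose mean levels in DMSO were 5.21 and 3.14 CPM. Across the 44 members tested, the level in DMSO and the log2 fold change had a Spearman correlation of -0.325, which is given as a description, since the points come from the same 6 libraries and the DMSO level enters both measures. The order of the members by their change was similar among the pairs, with Spearman correlations of 0.850 between pairs 1 and 2, 0.947 between pairs 1 and 3 and 0.894 between pairs 2 and 3. The median log2 change of the members was 1.32, 1.23 and 1.36 in pairs 1, 2 and 3. Pair 2 held the smallest of the 3 changes for 23 members, pair 1 for 15 and pair 3 for 6. Per length, the level in DMSO ranged from 0.408 CPM per kb of exon for PTGER4 and 0.744 for MAF to 132 for STK39 and 309 for PPAP2A among the genes tested. Under SAL, MAF reached 19.6 CPM per kb, close to the 18.6 of PA2G4, which had not changed past the threshold.

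The members were next set beside their relatives, meaning paralogs or partners from the same protein family or complex. Of 62 relatives tested, 14 were upregulated (22.6%) and 5 downregulated (8.06%), against 11.5% and 9.37% of all genes, with a median log2 fold change of 0.14. With DESeq2 and the block 8 were upregulated, against 7.66% of all genes in that fit. Without replicate 3 there were 7 upregulated and 3 downregulated, against 4.41% and 2.84% of all genes. The change was upward in all 3 pairs in 31 of the 62, against 25.9% of all genes. The other 43 relatives were not called, among them a pair chosen once their values were known. ELL had a log2 fold change of 0.022 beside 1.92 for ELL2, and EAF1 of 0.16 beside 2.21 for EAF2. The difference between the changes of 2 genes was not tested here.

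The 5 downregulated relatives made up 8.06% of those tested, against 9.37% of all genes. They belonged to 5 families with an upregulated member, and 40 of the 44 members tested were upregulated. NCAPD2, the condensin I counterpart of NCAPD3, fell from 279 ± 163 to 176 ± 90.0 CPM (SD, n = 3, log2 change of -0.60 ± 0.098 SE, adjusted p = 0.000378), with -0.38, -0.74 and -0.67 in the pairs. PTGER3, the prostaglandin receptor EP3, had 14, 53 and 27 counts in the DMSO libraries and 3, 7 and 12 in the SAL libraries (log2 change of -2.22 ± 0.41 SE, adjusted p = 0.00121), while PTGER4 was upregulated. LRIG3 fell by 0.78 on the log2 scale (adjusted p = 0.00138) and ABCC5 fell by 0.69 (adjusted p = 0.000280), and in both the SAL libraries were below all DMSO libraries, as in 3.73% of all genes. ZBTB11 fell by 0.32 (adjusted p = 0.0291).

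Other relatives rose with their member. KRT8 and KRT18, the keratin pair of luminal cells, had log2 fold changes of 2.45 and 1.72 beside 2.75 for KRT19. The transporter gene ABCC1 rose by 1.40 and ABCC4 by 1.41 on the log2 scale (adjusted p = 3.88e-08 for ABCC1). HERC5 of the HERC3 family was 3.04-fold higher (adjusted p = 2.09e-05). MYL9, the smooth muscle relative of MYL12A, rose by 3.38 on the log2 scale (adjusted p = 2.43e-05), with 1, 6 and 3 counts in the DMSO libraries and 19, 57 and 44 in the SAL libraries. RAB4B was 2.00-fold higher (adjusted p = 0.0379), at 8 to 37 counts per library.

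**Figure D4:**
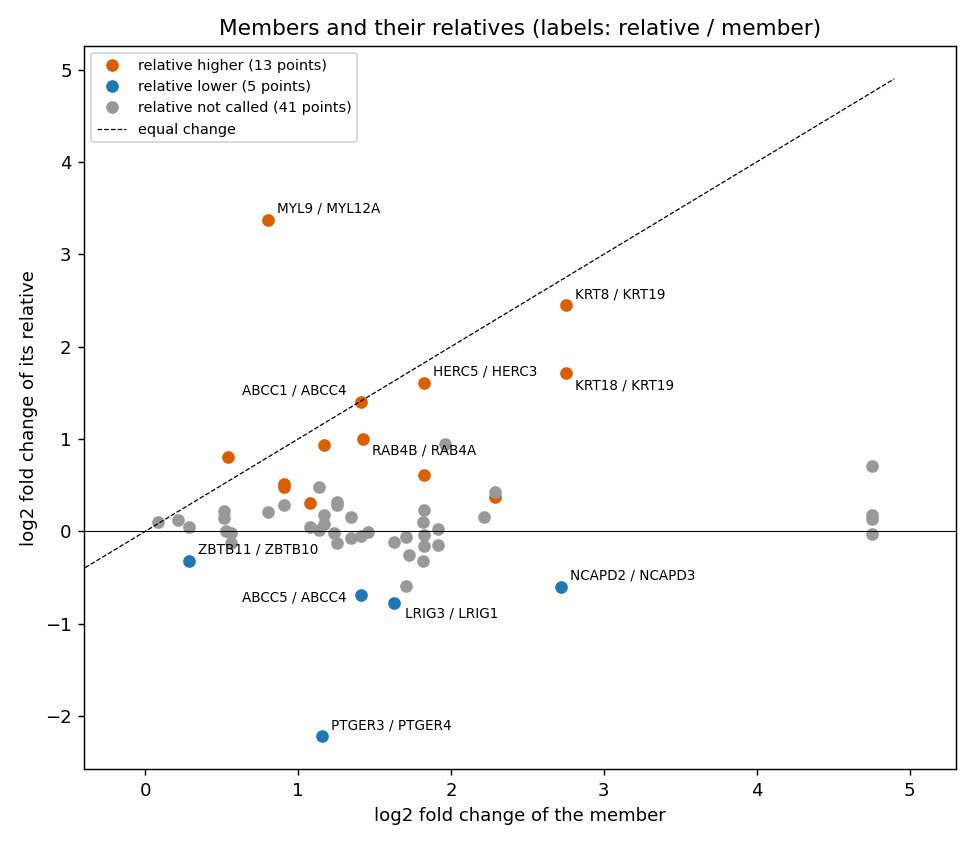
Log2 fold change of each relative tested (y axis) against that of its member (x axis), with upregulated relatives in orange, downregulated ones in blue and those not called in gray; relatives of SLC26A3, which was not tested, are left out. Most gray points lie near 0 on the y axis at any value on the x axis, and NCAPD2, PTGER3, LRIG3, ABCC5 and ZBTB11 lie below it.

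Several members share exon bases with another gene, mostly on the other strand, and the counting took no account of strand. Exons of 23 of the 45 members overlap those of another gene in the annotation used here, and 19 of the 40 upregulated members have no such overlap. Of 13 overlapping neighbors that were tested, 6 were upregulated (46.2%), against 11.5% of all genes. CCDC152, opposite SEPP1, had a log2 fold change of 2.35 beside 2.41 (adjusted p = 2.44e-05), and F2RL2, opposite IQGAP2, of 1.80 beside 1.82 (adjusted p = 0.000157). VPS26B, next to NCAPD3 on the other strand, rose by 1.32 on the log2 scale (adjusted p = 1.19e-07), and JAM3, which also overlaps NCAPD3, had 1.34 and was not called (adjusted p = 0.158). LIFR-AS1, opposite LIFR, rose by 1.23 (adjusted p = 0.0068). RNF138P1 within PPAP2A had 0.68 and PACSIN2 beside ARFGAP3 had 0.43 (adjusted p = 0.000261 and adjusted p = 0.00346). Reads that fitted more than 1 gene in the authors' counting were tallied as ambiguous and counted for none, 1.25% to 1.9% of the reads tallied per library. Reads wholly within exon bases shared by counted genes in the authors' annotation thus entered neither count. The neighbors CCDC152, F2RL2 and LIFR-AS1 had 1.76, 2.07 and 3.55 CPM in DMSO. Whether other reads were assigned to the wrong gene of the pairs with SEPP1, IQGAP2 and LIFR was not tested. By contrast, SLC25A26, which overlaps LRIG1, changed by 0.20 on the log2 scale (adjusted p = 0.381) and CALML4, which overlaps PIAS1, by 0.36 (adjusted p = 0.0771), and neither was called.

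Among 71 other genes known for their androgen response, 54 were upregulated (76.1%) and none was downregulated in edgeR or in DESeq2 with the block, with 1 below an unadjusted p of 0.05 in edgeR and none in DESeq2. Their median log2 fold change was 0.98. FKBP5, a cochaperone of steroid receptors, and TMPRSS2, a surface protease, had log2 fold changes of 3.36 and 2.07. The kallikreins KLK3 and KLK2 had 1.21 and 0.77, with adjusted p-values of 5.79e-05 or smaller for all 4 (edgeR with the block).

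**Figure D5:**
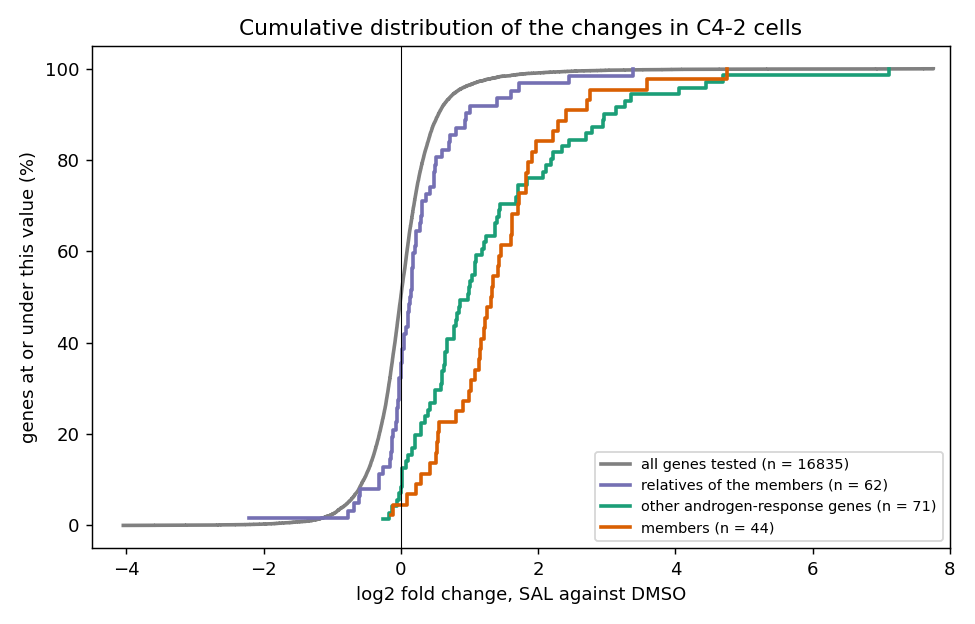
Share of genes (y axis, percent) at or under each log2 fold change (x axis) for the 44 members, 62 relatives, 71 other androgen-response genes and all 16835 genes tested. The curve of the members crosses 50% at 1.32 that of the relatives at 0.14 and that of all genes at -0.0011.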

How the data were processed

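RNA came from C4-2 cells given DMSO or SAL for 72 h, and the groups and replicate numbers were taken from the sample titles. After trimming, the authors aligned 1 read per pair to hg19 (TopHat2 2.1.0) and counted exonic reads per gene with htseq-count (HTSeq 0.11.2, gencode v19) without regard to strand, although the kit is stranded. The deposited values are these raw counts, between 7864471 and 12532355 per library over genes.

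Removal of 523 rRNA symbols (11.9% to 27.8% of the counts) followed the study. Low genes were dropped with edgeR's filterByExpr, which left 16835 genes, and SAL was compared with DMSO by edgeR 4.0.16 (R 4.3.3, TMM, robust quasi-likelihood test, replicate block, Benjamini-Hochberg adjustment over all genes). The numbers pair the libraries, since deviations from the group means correlated at 0.886, 0.856 and 0.739 within numbers. The change in a pair is SAL minus DMSO in log2 CPM (prior count 2). On simulated data with 192 changed genes among 16364 genes, 82.1% of 2-fold and 46.4% of 1.5-fold changes were called for this comparison, none in the wrong direction, and unchanged genes made up 6.82% of the calls. The simulation changed far fewer genes than the 1931 and 1577 called up and down in the real data. It also gave both groups the same replicate effects, with no response that differs between pairs. These rates may therefore differ in the real data.

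The members, the gene lists and the rule for named genes were chosen with earlier results of these data known. By that rule, values per library are given for the 3 upregulated members with the smallest adjusted p in each role and the 5 with the largest change, relatives are named where they were called opposite to their member or changed by at least 1 (log2), and KLK3, KLK2, TMPRSS2 and FKBP5 stand for the other androgen-response genes. Library values of DBI, ZMIZ1, PTGER4 and SLC26A3, and further relatives, were added once their values were known. Positions, exon lengths and overlaps come from GRCh37 with GENCODE v44, newer than the annotation of the authors, and PPAP2A, SEPP1 and LDLRAD4 were matched through older symbols. PECAM1 and TARP were not analysed here, and some genes are not reported here. Protein sequences were not used here. The alternatives were no block, DESeq2 1.42.0 with the block, its size factors, other filters, rRNA genes kept and each replicate left out. With 3 libraries per group, their number limits the precision.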

Additional observations from a re-analysis of the deposited data

How the results depend on the processing

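The replicate block decided more than any other setting. Without the replicate block, 18 genes were upregulated and 3 downregulated in place of 1931 and 1577, with 0 of the members, 0 of the relatives in either direction and 5 of the 71 other androgen-response genes upregulated, although same-numbered libraries are paired by their correlation. The median log2 fold change of the members was 1.34 in that fit. DESeq2 with the block gave 1290 upregulated and 950 downregulated genes, which were 7.66% and 5.64% of all genes. It called 8 of the relatives and 36 of the members upregulated.

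With each replicate left out, the members upregulated were between 34 and 38 and their median between 1.28 and 1.32. Over all genes, 750 to 2443 were upregulated (4.41% to 14.6%) and 483 to 1955 downregulated (2.84% to 11.7%), with the lowest counts without replicate 3. The relatives upregulated were between 7 and 16 and those downregulated between 3 and 6, and the other androgen-response genes downregulated between 0 and 1. Of the 40 calls of members, 34 held in every one of the 8 alternatives with the block in which the gene was tested, and 6 did not (ZBTB10, PTGER4, RAB27A, TMEM50A, ARFGAP3 and NGLY1). MAF and PTGER4 were not tested when at least 10 counts were required in every library. No member changed direction in any of the 9 alternatives. Low counts limit PTGER4 and SLC26A3 most.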
